A study of Saccharomyces cerevisiae with 12 samples.

Results

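Budding yeast names many of its ribosome assembly factors by a few letters and a number, and 60 of the 6685 genes listed in the deposited table carry such a name: UTP, NOP, RRP, NOC, NSA or ENP followed by a number alone. They comprise 18 UTP, 18 RRP, 17 NOP, 3 NOC, 2 NSA and 2 ENP genes. Membership rests on the name alone, and the members were chosen with earlier results of these data known. By the known role of the protein, 29 of the 60 act on the small ribosomal subunit, 16 on the large subunit and 3 on both subunits (RRP5, RRP12 and RRP14). A further 4 encode core proteins of small nucleolar ribonucleoproteins (NOP1, NOP56, NOP58 and NOP10), 7 encode exosome subunits (RRP4, RRP6, RRP40, RRP42, RRP43, RRP45 and RRP46), and NOP13 was left without a role. Factors with other names, such as DIP2, ERB1 and SNU13, are outside the naming rule and were compared as separate lists.

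Ribosome assembly starts in the nucleolus, where RNA polymerase I makes a long precursor RNA. Small nucleolar ribonucleoproteins (snoRNPs) modify that precursor, the small subunit processome with its UTP proteins folds and cleaves it, other assembly factors build the large subunit particle, and the exosome trims and degrades RNA from the 3′ end. In yeast the genes for these factors are known to follow growth rate and nutrients together. Many of their promoters hold the PAC element, bound by the repressors Dot6 and Tod6, and the RRPE element, bound by Stb3.

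The 12 libraries came from RNA of whole CEN.PK, MAT a cultures and form 6 groups of 2. Wild type (WT) and a cho2-delta::KanMX strain (called cho2), which lacks the phosphatidylethanolamine methyltransferase Cho2 and with it a large use of the methyl donor S-adenosylmethionine, were each sampled in 3 states. The first was log phase in YPL, which is rich in nutrients and holds yeast extract at 1%, peptone at 2% and, as carbon source, lactate at 2%. The other two were 1 h and 3 h after washing and transfer at an A600 of 1.0 to SL, a minimal medium of 0.17% nitrogen base with 0.5% ammonium sulfate, no amino acids and the same 2% lactate. The title of the series asks what phospholipid and histone methylation do in metabolism. Both libraries of a group are described as biological replicates without a word on separate cultures. The p-values therefore cover the spread between these samples, part of which may be technical.

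Values are normalised read counts, that is, reads divided by 1 factor per library. Recovered reads ranged from 9.17 M to 12.5 M (M for mega) in 11 libraries and came to 3.17 M in WT SL 3 h replicate 2. CHO2 stood between 1571 and 4065 in the 6 WT libraries and at 3.77 to 9.19 in the 6 cho2 libraries, which matches their labels. The library cho2 SL 3 h replicate 2 stood apart: its median gene lay at -0.34 on the log2 scale from the mean of the 12 libraries, and the other 11 lay between -0.07 and 0.17. Results on 3 h in cho2 are therefore also given without this library. In it 1 read counted as 0.68 in the deposited values, with 11.9 M recovered reads. In cho2 SL 1 h replicate 2, with 12.5 M, 1 read counted as 0.77. How far this scaling lowered the values of cho2 SL 3 h replicate 2 was not tested. The values are relative to the scaling factor of each library, and in a bulk sample fewer cells with a transcript and less of it per cell cannot be told apart. All 60 genes passed the filter on low values. The lowest single value was 82.9 (RRP36 in WT SL 1 h replicate 2), and the fewest recovered reads behind a value were 68 (RRP36 in WT SL 3 h replicate 2).

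The promoters of 7 of the genes are printed, and these genes were chosen by the responses described further on. NOP58, NOP1 and NOP7 were among the deepest falls at 1 h. UTP14 was called higher in cho2 than in WT at 1 h, and the change of UTP9 from YPL to 1 h was called different between the strains. The exosome genes RRP40 and RRP45 did not fall. Each line gives bases 250 to 51 before the start codon, 5′ to 3′ on the coding strand of the gene, from the RefSeq R64 reference of strain S288C. Capitals mark the PAC core GATGAG and the RRPE core AAAATTT on either strand, so CTCATC and AAATTTT also appear. The windows are chrXV:898411-898610 on the minus strand for NOP58, chrIV:427114-427313 plus for NOP1, chrVII:695167-695366 plus for NOP7, chrXIII:82840-83039 plus for UTP14, chrVIII:491681-491880 plus for UTP9, chrXV:55308-55507 plus for RRP40 and chrIV:1020497-1020696 plus for RRP45. CEN.PK differs from S288C at some positions, and the deposited values were made on another build, sacCer2, so these coordinates belong to the R64 annotation and not to the deposited table.
NOP58 promoter: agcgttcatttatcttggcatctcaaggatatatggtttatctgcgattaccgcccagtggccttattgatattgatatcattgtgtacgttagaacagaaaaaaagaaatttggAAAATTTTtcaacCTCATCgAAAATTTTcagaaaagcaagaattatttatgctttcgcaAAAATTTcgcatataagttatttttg
NOP1 promoter: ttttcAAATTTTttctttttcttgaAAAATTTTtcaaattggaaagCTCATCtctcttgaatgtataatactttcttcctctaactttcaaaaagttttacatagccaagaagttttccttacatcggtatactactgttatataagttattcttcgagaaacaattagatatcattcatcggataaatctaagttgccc
NOP7 promoter: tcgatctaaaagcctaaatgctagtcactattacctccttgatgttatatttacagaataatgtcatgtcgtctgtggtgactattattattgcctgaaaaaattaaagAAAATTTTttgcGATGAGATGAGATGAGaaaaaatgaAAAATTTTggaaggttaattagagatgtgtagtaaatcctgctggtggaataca
UTP14 promoter: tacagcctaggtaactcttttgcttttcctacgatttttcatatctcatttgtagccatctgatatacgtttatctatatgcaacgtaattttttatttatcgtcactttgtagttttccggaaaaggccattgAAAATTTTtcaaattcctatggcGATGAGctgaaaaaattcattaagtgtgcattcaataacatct
UTP9 promoter: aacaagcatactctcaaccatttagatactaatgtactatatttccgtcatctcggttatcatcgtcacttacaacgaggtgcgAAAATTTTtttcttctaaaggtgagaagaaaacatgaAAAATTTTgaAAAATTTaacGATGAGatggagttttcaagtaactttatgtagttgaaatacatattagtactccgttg
RRP40 promoter: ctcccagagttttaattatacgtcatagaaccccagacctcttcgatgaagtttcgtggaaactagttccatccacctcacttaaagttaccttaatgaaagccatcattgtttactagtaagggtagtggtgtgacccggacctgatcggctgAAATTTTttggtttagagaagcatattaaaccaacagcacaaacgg
RRP45 promoter: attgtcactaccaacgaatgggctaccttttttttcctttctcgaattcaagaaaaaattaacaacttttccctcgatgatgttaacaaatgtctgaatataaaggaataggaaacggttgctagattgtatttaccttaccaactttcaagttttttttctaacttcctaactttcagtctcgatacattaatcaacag
The NOP58, NOP1, NOP7, UTP14 and UTP9 windows hold both cores. In NOP7 the PAC core is repeated 3 times in overlap, with the copies beginning 129, 124 and 119 bases before the start codon. In the RRP40 window only the RRPE core is present, since its PAC core begins at 38 bases before the start codon, and the RRP45 window holds neither. Because these genes were chosen by response, they cannot show whether the cores go with a fall. Some genes not printed go the other way. UTP4 fell at 1 h in WT, and its promoter lacks the PAC core. The UTP11 and NOP8 promoters hold both cores, yet neither gene was called at 1 h in WT by limma with the deposited scaling and all libraries. Counts over all the genes are given further on.

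After 1 h in SL, 47 of the 60 genes had fallen and 3 had risen in WT cells. Among all 6546 tested genes 23.8% fell and 33.7% rose in this comparison (limma, Benjamini-Hochberg adjusted p under 0.05). The median difference of the 60 was -1.10 on the log2 scale and that of all tested genes 0.18. The falls were deepest in the snoRNP core (median -3.50), similar in small subunit (-1.13) and large subunit factors (-1.14), and not shared by the exosome (0.37). Differences from here on are log2 ratios of the normalised read count plus 1, under the deposited scaling unless another is named. Values after ± are the standard error (SE) of the limma fit, with n = 2 libraries a group.

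**Figure D1:**
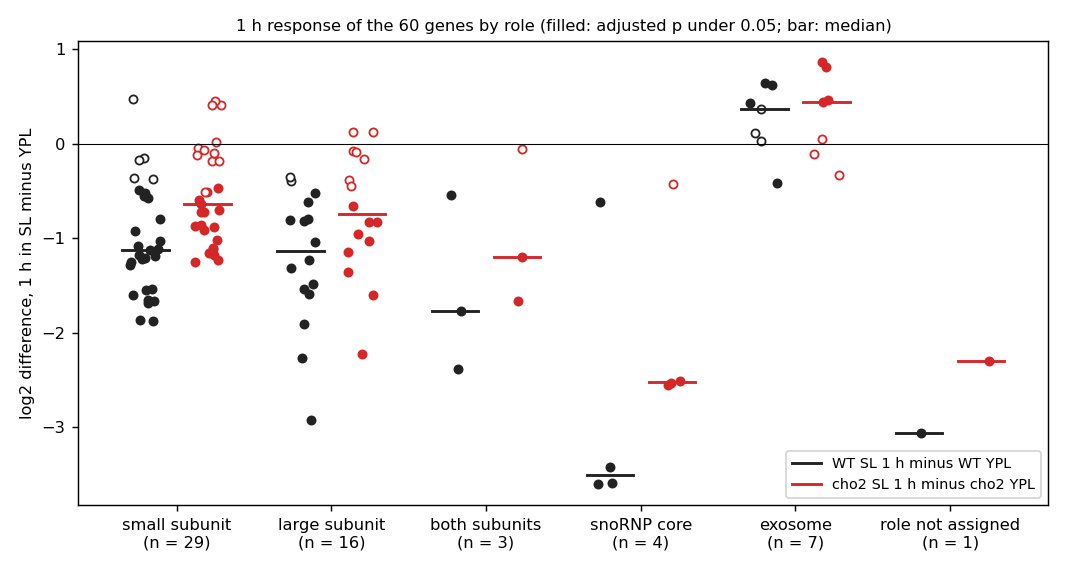
Log2 difference between 1 h in SL and YPL for each of the 60 genes (points), by the role of the protein, in WT (black) and cho2 (red); filled points passed at an adjusted p under 0.05 and bars are class medians. The snoRNP core lies lowest apart from NOP10, the small and large subunit classes have close medians of -1.13 and -1.14 in WT, and most exosome points lie above 0.

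The 3 proteins that surround the guide RNA of box C/D snoRNPs, which direct 2′-O-methylation of ribosomal RNA, had the largest changes. NOP1, the fibrillarin ortholog and methyltransferase of the complex, which also methylates a glutamine of histone H2A, had 3657 and 3996 normalised reads in WT YPL libraries, 348 and 290 after 1 h and 1134 and 886 after 3 h. In cho2 it had 2715 and 2708 in YPL, 447 and 487 after 1 h and 701 and 594 after 3 h. NOP1 was thus highest in YPL in both strains, with no overlap between any of the 3 states of a strain. It fell by 3.58 ± 0.17 in WT at 1 h (limma adjusted p = 1.79e-14).

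NOP58, a scaffold protein of the same particle, stood at 2904 and 2562 for WT in YPL, 275 and 182 at 1 h and 1297 and 1071 at 3 h. In cho2 the values were 1950 and 1777, 322 and 310, and 947 and 655. NOP56, its paralog in the particle, stood at 3137 and 2631, 319 and 224, and 1071 and 912 in WT, and at 2191 and 2107, 397 and 357, and 912 and 710 in cho2. Both followed NOP1, low at 1 h and partly restored at 3 h, with separate groups throughout. NOP58 fell by 3.60 ± 0.20 (limma adjusted p = 2.67e-13) and NOP56 fell by 3.42 ± 0.19 (2.15e-13) in WT at 1 h.

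NOP10 belongs to the other family, the H/ACA snoRNPs that direct pseudouridylation. It stood at 905 and 739 for WT in YPL, 547 and 517 at 1 h and 562 and 464 at 3 h. In cho2 it stood at 683 and 726, 520 and 525, and 776 and 609. Its fall in WT at 1 h was small, 0.62 ± 0.18 (limma adjusted p = 0.00538), and the call was lost without WT YPL replicate 1 (-0.47, adjusted p = 0.0911). Outside the naming rule, SNU13, the remaining box C/D core protein, fell by 3.16 ± 0.20 and GAR1, another H/ACA core protein, fell by 2.98 ± 0.17.

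**Figure D2:**
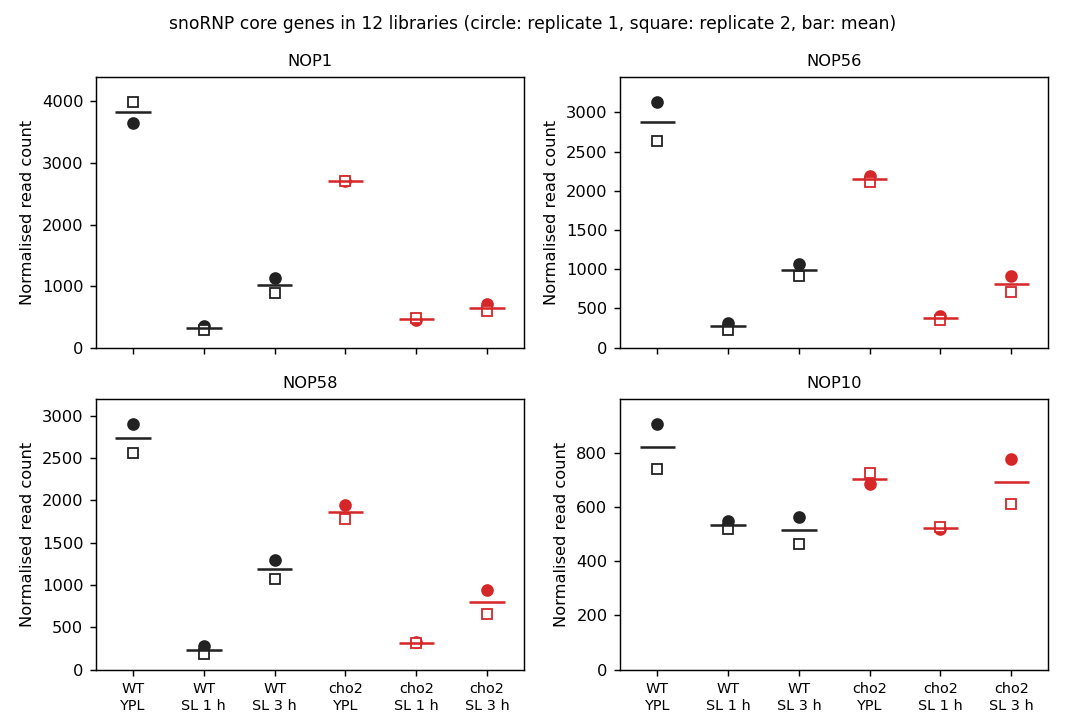
Normalised read count of NOP1, NOP56, NOP58 and NOP10 in all 12 libraries (circles replicate 1, squares replicate 2, bars the mean of the 2; WT black, cho2 red; each axis starts at 0). NOP1, NOP56 and NOP58 drop at 1 h and partly return at 3 h in both strains, while NOP10 changes little.

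Of the 29 small subunit factors 24 fell and 0 rose in WT at 1 h, with single values from -1.88 to 0.48. The UTP-A subcomplex binds the precursor RNA early. Its 6 members with a name under the rule (UTP4, UTP5, UTP8, UTP9, UTP10 and UTP15) all fell, from -0.80 for UTP15 to -1.86 for UTP4. The 4 UTP-B members with such a name (UTP6, UTP13, UTP18 and UTP21) also fell, from -0.49 for UTP18 to -1.69 for UTP13. DIP2, a UTP-B protein with another name, fell by 2.34 ± 0.20.

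UTP14, which activates the RNA helicase Ecm16 that releases the U3 snoRNA, stood at 991 and 1199 for WT in YPL, 310 and 284 at 1 h and 748 and 943 at 3 h. UTP4 stood at 997 and 1151, 294 and 293, and 847 and 766, and UTP13 at 674 and 781, 252 and 200, and 749 and 778. All 3 were lowest at 1 h in both WT libraries and had left that level by 3 h. Their differences at 1 h were -1.88 ± 0.18 for UTP14, -1.86 ± 0.20 for UTP4 and -1.69 ± 0.19 for UTP13 (limma adjusted p = 3.88e-09, 3.12e-08 and 5.68e-08). Values in cho2 were 1021 and 928, 489 and 476, and 842 and 670 for UTP14. UTP4 stood at 944 and 871, 398 and 406, and 962 and 551 in cho2, and UTP13 at 685 and 591, 298 and 288, and 723 and 521. In cho2, too, the 3 genes were lowest at 1 h without overlap with YPL.

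The 5 small subunit factors that did not pass were UTP11, UTP30, RRP7, RRP36 and NOP19. UTP11, a processome protein, stood at 321 and 351 for WT in YPL, 280 and 327 at 1 h and 416 and 570 at 3 h, so that the first 2 states overlapped (-0.15 ± 0.20 at 1 h, limma adjusted p = 0.535). In cho2 it stood at 283 and 331, 406 and 408, and 508 and 396. UTP30, also of the processome, stood at 247 and 267, 217 and 239, and 181 and 262 in WT, and at 264 and 279, 277 and 226, and 333 and 189 in cho2. Its WT difference at 1 h was -0.17 ± 0.24 (limma adjusted p = 0.557), and both WT libraries at 1 h were below both in YPL. NOP19 had the only positive value of the class at 0.48 ± 0.21 (adjusted p = 0.0574).

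Of the 16 large subunit factors 14 fell and 0 rose in WT at 1 h, from -0.52 for RRP15 to -2.92 for NOP7 among those that passed. NOP7 acts with Erb1 and Ytm1 on the large subunit precursor. It stood at 2138 and 2705 for WT in YPL, 345 and 291 at 1 h and 1258 and 1140 at 3 h, and in cho2 at 2232 and 2214, 496 and 452, and 1462 and 968. Each state was separate from the others in both strains, and the WT difference at 1 h was -2.92 ± 0.19 (limma adjusted p = 3.62e-12). Its partner ERB1 fell by 2.88 ± 0.19.

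NOP2, which methylates a cytosine of 25S ribosomal RNA with S-adenosylmethionine, stood at 1964 and 2572 for WT in YPL, 486 and 446 at 1 h and 1289 and 1088 at 3 h. In cho2 it stood at 2145 and 2071, 708 and 680, and 1219 and 722. It fell by 2.27 ± 0.20 in WT (limma adjusted p = 1.02e-09). RRP8, which methylates an adenine of 25S ribosomal RNA, stood at 530 and 712, 195 and 211, and 533 and 561 in WT, and at 593 and 582, 281 and 250, and 758 and 400 in cho2. RRP8 fell by 1.59 ± 0.23 at 1 h in WT (2.10e-06), and in WT its 3 h values lay beside those in YPL, whereas those of NOP2 did not reach them. NOC2, which forms complexes with other NOC proteins and moves with the pre-ribosome, stood at 1348 and 1563, 402 and 371, and 755 and 744 in WT and at 1283 and 1139, 510 and 436, and 907 and 517 in cho2. NOC2 fell by 1.91 ± 0.21 (2.54e-08).

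NOP53 and NOP8, both large subunit assembly factors, did not pass in the limma fit to the deposited scaling. NOP53 stood at 684 and 648, 546 and 466, and 657 and 590 in WT, and at 567 and 535, 560 and 477, and 660 and 402 in cho2. NOP8 stood at 310 and 415, 278 and 285, and 230 and 231 in WT, and at 324 and 312, 347 and 348, and 296 and 223 in cho2. Their WT differences at 1 h were -0.40 ± 0.20 and -0.35 ± 0.20 (limma adjusted p = 0.0939 and 0.133), and both WT pairs at 1 h were below those in YPL without overlap, as were 32.4% of all tested genes. Both passed as lower under TMM scaling (-0.55 and -0.51, adjusted p = 0.00509 and 0.0057), quantile normalization (0.0131 and 0.00578) and DESeq2 (0.00222 and 0.00414).

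RRP5, RRP12 and RRP14, which act on both subunits, all fell in WT at 1 h. RRP5, which binds the precursor around the spacer that separates the subunits, stood at 1894 and 2009, 391 and 358, and 1477 and 1239 in WT, and at 1737 and 1457, 510 and 491, and 1370 and 862 in cho2. It fell by 2.38 ± 0.19 (limma adjusted p = 1.76e-10), and its groups at 1 h and in YPL were far apart in both strains. RRP12, an export factor, stood at 1766 and 1962, 609 and 490, and 1633 and 1396 in WT, and at 1667 and 1441, 714 and 641, and 1585 and 995 in cho2, a fall of 1.77 ± 0.20 in WT (4.41e-08). RRP14 stood at 746 and 931, 535 and 612, and 731 and 812 in WT, and at 771 and 791, 793 and 715, and 1011 and 691 in cho2. RRP14 changed least of these 3, with -0.54 ± 0.19 in WT (0.0178), and lost its call without WT YPL replicate 2 (-0.38, adjusted p = 0.185) and without WT SL 1 h replicate 1 (-0.44, 0.124).

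Of the 7 exosome genes RRP4, RRP40 and RRP43 rose and RRP6 fell in WT at 1 h, beside the 33.7% of all tested genes that rose and the 23.8% that fell. The class median was 0.37, against 0.18 for all tested genes. The values of the 3 that rose are given although those genes were chosen after their values were seen. RRP40, a cap protein of the exosome, stood at 547 and 645 for WT in YPL, 907 and 942 at 1 h and 885 and 795 at 3 h, and in cho2 at 580 and 594, 1091 and 1041, and 1193 and 691. RRP43, a ring subunit, stood at 570 and 541, 918 and 791, and 866 and 835 in WT and at 479 and 492, 833 and 870, and 837 and 659 in cho2. RRP4, also a cap protein, stood at 517 and 547, 712 and 727, and 903 and 1006 in WT and at 502 and 504, 661 and 703, and 951 and 766 in cho2. In all 3 genes every SL library was above every YPL library of its strain. The WT differences at 1 h were 0.64 ± 0.20, 0.62 ± 0.17 and 0.44 ± 0.17 (limma adjusted p = 0.00936, 0.00374 and 0.0316).

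The ring subunits RRP42 and RRP45 had the smallest differences of the class. RRP42 stood at 578 and 574, 623 and 625, and 487 and 462 in WT, and at 548 and 528, 568 and 545, and 448 and 295 in cho2. RRP45 stood at 487 and 444, 500 and 450, and 328 and 427 in WT, and at 421 and 472, 446 and 384, and 396 and 300 in cho2. At 1 h in WT they lay at 0.11 ± 0.19 and 0.03 ± 0.19, and both took a negative sign under TMM scaling (-0.04 and -0.13), with no call under either. RRP6, the nuclear 3′ to 5′ exonuclease that joins the ring, stood at 1002 and 991, 770 and 730, and 1069 and 1054 in WT, and at 952 and 924, 774 and 721, and 998 and 758 in cho2. Its WT fall of 0.41 ± 0.17 just passed (limma adjusted p = 0.0418), and leaving out either WT library in YPL or at 1 h ended the call, at adjusted p from 0.0935 to 0.176, as did leaving out any cho2 library in YPL or at 1 h, at 0.0678 to 0.0708.

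NOP13, a nucleolar RNA-binding protein related to Nop12, stood at 944 and 1007 for WT in YPL, 123 and 109 at 1 h and 405 and 459 at 3 h. In cho2 it stood at 866 and 829, 185 and 159, and 496 and 376. It was low at 1 h in all 4 libraries and fell by 3.06 ± 0.19 in WT (limma adjusted p = 1.18e-12), more than any of the subunit factors, NOP7 being nearest at -2.92.

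Levels can be set between genes only per length. Per kilobase of coding sequence for WT in YPL, NOP10 was highest with 4645 normalised reads, followed by NOP1 with 3889, NOP56 with 1903 and NOP58 with 1779, and UTP20 was lowest with 132. The library values of NOP10 (5115 and 4174) and NOP1 (3717 and 4061) did not overlap, while those of NOP56 (2070 and 1736) and NOP58 (1891 and 1668) did. The median level per kilobase was 2896 in the snoRNP core, 805 in large subunit factors, 507 in the exosome and 388 in small subunit factors. After 1 h in SL the order had changed, with the exosome at a median level of 721, large subunit factors at 334, the snoRNP core at 252 and small subunit factors at 162. NOP10 stayed first at 3007 per kilobase, RRP40 came next at 1279, and NOP1 stood at 324. The coding sequence of NOP10 is only 177 bases, and the annotation behind the counts is not given. Its values per kilobase, and the snoRNP core medians that include them, are therefore uncertain.

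By 3 h much of the change at 1 h had been undone in WT. From 1 h to 3 h 42 of the 60 genes rose and 0 fell, while 11.1% of all tested genes rose and 25.5% fell. The median difference was 0.85, against -0.21 for all tested genes. Those that rose were 25 of 29 small subunit factors, 10 of 16 large subunit factors, 2 of 3 that act on both, NOP1, NOP56 and NOP58 of the snoRNP core, NOP13, and RRP6 of the exosome. NOP58 rose most (2.39 ± 0.20), ahead of NOP7 (1.91 ± 0.19), NOP56 (1.88 ± 0.19) and NOP13 (1.88 ± 0.19). NOP10 lay at -0.06. Over the settings tried the median ran from 0.82 to 1.19 in small subunit factors and from 0.64 to 0.90 in large subunit factors.

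Against YPL, 17 of the 60 were lower and 6 higher at 3 h in WT, while 30.8% of all tested genes were lower and 22.9% higher, and the median was -0.23 against -0.08. This comparison shares the 3 h libraries with that from 1 h to 3 h and the YPL libraries with that at 1 h. The 4 snoRNP core genes were all lower, NOP1 the most at -1.93 ± 0.17. Of the large subunit factors NOC2 (-0.95), NOP2 (-0.92), NOP7 (-1.01), NOP8 (-0.64), NSA1 (-0.68) and the exonuclease RRP17 (-0.88) were lower, and of the small subunit factors ENP1 (-0.63), NOP14 (-0.46), RRP9 (-0.54), UTP10 (-0.56) and UTP21 (-0.99), beside RRP5 and NOP13. The 6 that were higher were RRP4 (0.84), RRP40 (0.50), RRP43 (0.61) and RRP46 (0.60) of the exosome and RRP36 (0.70) and UTP11 (0.54) of the small subunit. Over the settings tried the median ran from -0.29 to -0.06 in small subunit factors and from -0.38 to -0.10 in large subunit factors.

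The cho2 strain passed through the same states. After 1 h in SL 33 of the 60 genes fell and 4 rose, beside 24.6% and 25.2% of all tested genes, with a median of -0.62 against 0.05. These 33 were all among the 47 that fell in WT. Class medians were -2.52 in the snoRNP core, -0.74 in large subunit and -0.64 in small subunit factors, and 0.44 in the exosome. Those that fell in this fit were 18 small subunit and 9 large subunit factors, RRP5, RRP12, NOP13, NOP1, NOP56 and NOP58. NOP10 passed as lower under TMM scaling (-0.49, adjusted p = 0.00748), quantile normalization (0.0492), edgeR with the deposited scaling (0.0402) and DESeq2 (0.00481). RRP6 did so under TMM scaling (-0.39, 0.00377) and DESeq2 (0.00383). UTP11 passed as higher under quantile normalization (0.43, 0.025). NOP58 fell by 2.55 ± 0.20, NOP1 fell by 2.54 ± 0.17 and NOP56 fell by 2.51 ± 0.19, or 5.87-fold, 5.80-fold and 5.70-fold. RRP4, RRP40, RRP43 and RRP46 rose, RRP40 most at 0.86 ± 0.20 (limma adjusted p = 0.000953).

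Among the genes that fell in WT but were not called at 1 h in cho2 were UTP9 and NOP4. UTP9, a UTP-A protein, stood at 415 and 466 for WT in YPL, 195 and 174 at 1 h and 432 and 490 at 3 h, and in cho2 at 341 and 281, 326 and 270, and 563 and 322. NOP4, an RNA-binding protein of large subunit assembly, stood at 784 and 990, 294 and 334, and 745 and 855 in WT and at 729 and 669, 525 and 502, and 820 and 560 in cho2. In UTP9 the cho2 libraries in YPL and at 1 h overlapped, and in NOP4 they were separate but close. The cho2 difference at 1 h was -0.06 ± 0.22 for UTP9 and -0.44 ± 0.19 for NOP4 (limma adjusted p = 0.844 and 0.0597), against -1.25 ± 0.22 and -1.49 ± 0.19 in WT. NOP4 did pass as lower in cho2 under other settings, among them TMM scaling (adjusted p = 0.0054), quantile normalization (0.0336), edgeR with the deposited scaling (0.0469) and DESeq2 (0.00323).

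**Figure D3:**
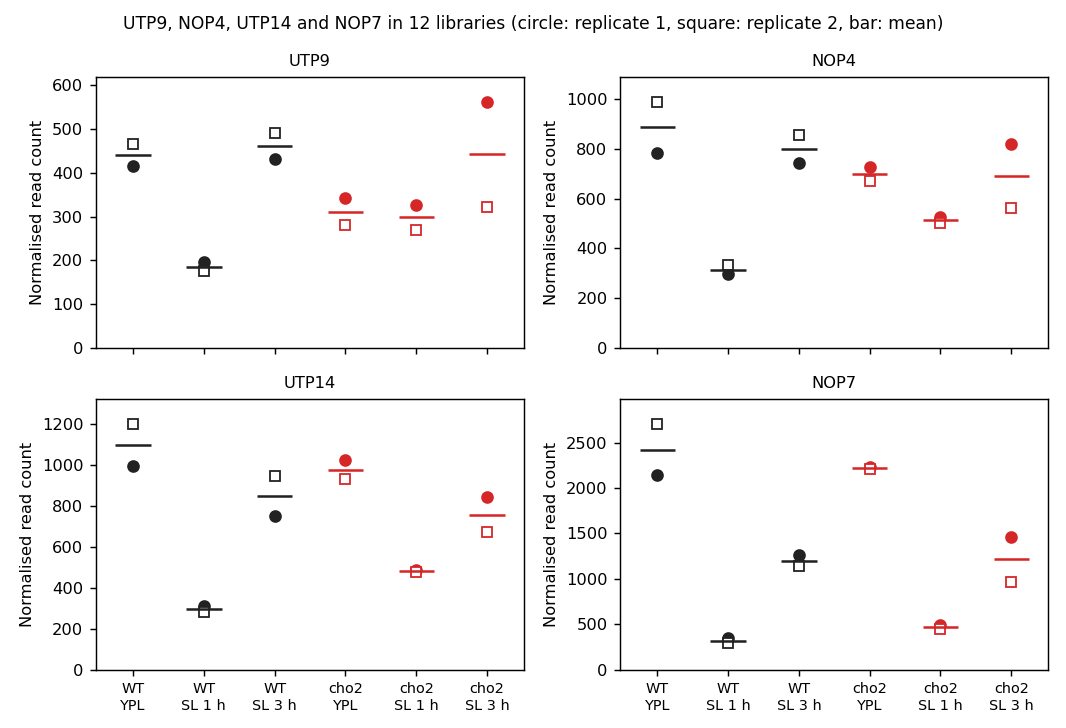
Normalised read count of UTP9, NOP4, UTP14 and NOP7 in all 12 libraries (circles replicate 1, squares replicate 2, bars the mean of the 2; WT black, cho2 red; each axis starts at 0). At 1 h the cho2 libraries lie above the WT libraries in all 4 genes, and in UTP9 the cho2 libraries at 1 h overlap those in YPL.

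From 1 h to 3 h in cho2 22 of the 60 genes rose and RRP42 fell, beside 7.99% and 23.8% of all tested genes, with a median of 0.39 against -0.16. This rise depended on single libraries, and without cho2 SL 3 h replicate 2 the median was 0.65. Over the settings tried the median ran from 0.096 to 0.67 in small subunit factors and from 0.087 to 0.73 in large subunit factors. Under TMM scaling 44 rose and 1 fell, beside 20% and 19.8% of all genes, with the median of all genes moved by 0.19. NOP7 (1.33 ± 0.19), NOP13 (1.32 ± 0.19), NOP58 (1.31 ± 0.20), RRP5 (1.12 ± 0.19) and NOP56 (1.09 ± 0.19) rose most. NOP1 rose by 0.47 ± 0.17 (limma adjusted p = 0.0435).

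Against YPL, 17 were lower and 9 higher at 3 h in cho2, beside 37% and 19.8% of all tested genes. The lowest were NOP1 (-2.07), NOP56 (-1.42), NOP58 (-1.24), NOP2 (-1.17) and NSA1 (-0.99). The 9 higher genes were RRP4, RRP40, RRP43 and RRP46 of the exosome, NOP15 of the large subunit, and RRP36, NOP19, UTP11 and UTP18 of the small subunit. Without cho2 SL 3 h replicate 2, 10 were lower and 16 higher, beside 29.4% and 28.2%, and quantile normalization gave 12 and 17, beside 29.5% and 34.3%. Over the settings tried the median ran from -0.38 to 0.21 in small subunit factors and from -0.53 to 0.03 in large subunit factors.

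**Figure D4:**
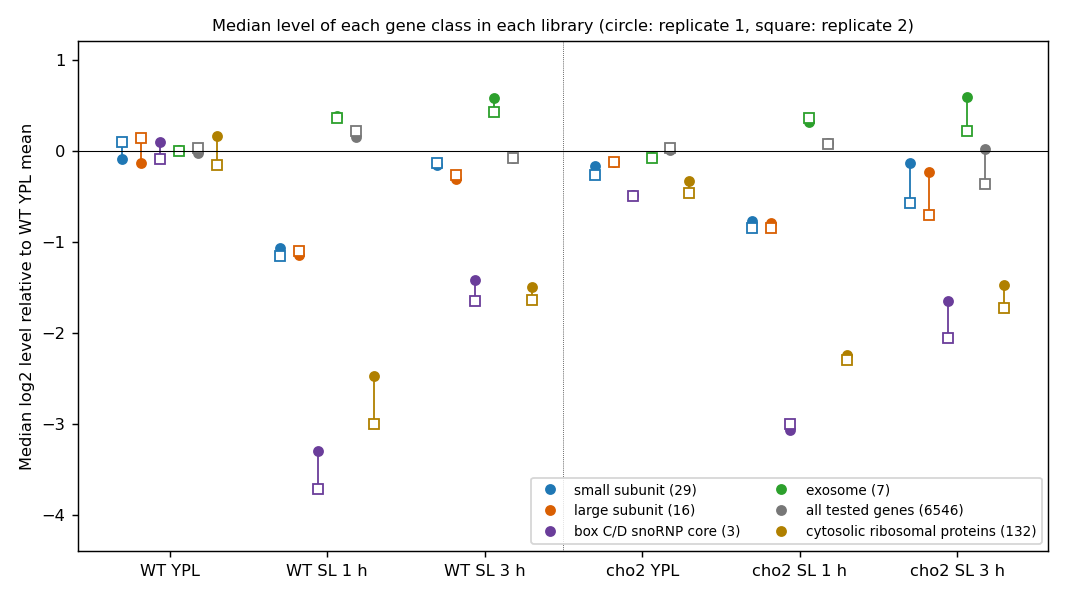
Median log2 level of each class in every library, relative to the WT YPL mean of each gene (circles replicate 1, squares replicate 2; 29 small subunit, 16 large subunit, 3 box C/D snoRNP core and 7 exosome genes, 132 ribosomal protein genes and all 6546 tested genes). The small and large subunit medians move together in every library, the box C/D genes are the lowest class at 1 h, and cho2 SL 3 h replicate 2 lies below its partner in all classes.

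Small and large subunit factors differed little. Relative to WT YPL, the small subunit median minus the large subunit median was 0.08 and -0.06 in the WT libraries at 1 h and 0.02 and 0.01 in those of cho2. At 3 h it was 0.16 and 0.13 in WT and 0.09 and 0.13 in cho2, above the WT libraries in YPL (0.04 and -0.04) and those of cho2 in YPL (-0.05 and -0.14). The pooled SD between replicates was 0.0546 for this quantity. In WT from 1 h to 3 h the class medians were 0.92 and 0.68, 0.23 apart. That gap took the opposite sign (-0.09) once the other-named factors of each subunit were added, and was 0.08 with means in place of medians. At 1 h in WT the difference of the class medians was 0.01, and 0.21 with means. These are descriptions without a test, since the members were chosen with results of these data known.

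Between the strains in YPL limma called 0 of the 60 genes, beside 0.336% of all tested genes higher and 0.0764% lower in cho2. At an unadjusted p under 0.05 there were 5 (6.97% of all tested genes), all lower in cho2: NOP58 (-0.55 ± 0.20), UTP9 (-0.50 ± 0.22), NOP1 (-0.50 ± 0.17), UTP18 (-0.46 ± 0.20) and NOP56 (-0.42 ± 0.19). edgeR called 0, beside 0.321% of all tested genes higher and 0.0917% lower, and DESeq2 called 1, beside 1.22% and 0.55%. The median was -0.19 against 0.01 for all tested genes. All 60 values come from the same libraries and are not separate results.

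At 1 h in SL UTP14, NOP4 and NOP1 were higher in cho2 than in WT and 0 were lower, beside 3.64% higher and 5.59% lower among all tested genes. UTP14 was higher by 0.70 ± 0.18, NOP4 by 0.71 ± 0.19 and NOP1 by 0.55 ± 0.17 (limma adjusted p = 0.0150, 0.0209 and 0.0470), each in both cho2 libraries against both WT libraries. The median of the 60 was 0.30 and that of all tested genes -0.07. In 41 of the 60 genes both cho2 libraries were above both WT libraries, as in 24.6% of all tested genes. The exosome median was -0.01, and small subunit, large subunit and snoRNP core medians were 0.26, 0.31 and 0.49. Of the 60, 22 were called higher under TMM scaling, beside 8.07% of all genes. The count was 0 without WT SL 1 h replicate 2 or either cho2 library at 1 h, 1 without WT SL 1 h replicate 1, and 14 without cho2 SL 3 h replicate 1 (5.78% of all genes) or replicate 2 (5.84%).

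The change from YPL to 1 h was tested for a difference between the strains by the interaction. It was called positive for NOP1 (1.05 ± 0.25), NOP4 (1.04 ± 0.27), UTP9 (1.19 ± 0.31) and NOP58 (1.05 ± 0.29) and negative for 0. The limma adjusted p were 0.0145, 0.0306, 0.0329 and 0.0421 in that order. NOP1, NOP4 and NOP58 fell less in cho2, and the cho2 libraries of UTP9 in YPL and at 1 h overlapped. Among all tested genes 1.62% were called positive and 1.99% negative. The value was above 0 in 57 of the 60 genes and in 2508 of 6546 tested genes, and the median was 0.46 against -0.09. In all 4 genes the interaction adds a lower value of cho2 in YPL, which passed for none of them, to a higher value at 1 h, which passed for NOP1 and NOP4. NOP4, for example, lay at -0.34 in YPL and 0.71 at 1 h. TMM scaling called 15 positive (3.28% of all genes). The count was 0 without WT SL 1 h replicate 2, cho2 YPL replicate 2 or either cho2 library at 1 h, 1 without WT YPL replicate 2 or cho2 YPL replicate 1, and 12 without cho2 SL 3 h replicate 1 (2.35% of all genes) or replicate 2 (2.37%). SNU13, of the same box C/D particle as NOP1 and NOP58, had an interaction of 1.31 (limma adjusted p = 0.00874), while NOP56 of that particle was not called.

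At 3 h in SL NOP1 was the only member called between the strains, lower in cho2 at -0.63 ± 0.17 (limma adjusted p = 0.0448), where 0.611% of all tested genes were higher and 2.83% lower. Both cho2 libraries (701 and 594) were below both WT libraries (1134 and 886). The median of the 60 was -0.13, and 0.12 without cho2 SL 3 h replicate 2. Without that library NOP1 lay at -0.51 (limma adjusted p = 0.0962), and without WT SL 3 h replicate 1 at -0.46 (0.309). In the first of these fits 1 other member was called higher, and 2.78% and 1.45% of all genes were called higher and lower. Without cho2 SL 3 h replicate 1 the number called lower was 19, beside 16.3% of all genes, and the count was 0 without any library in YPL from WT or cho2 or either cho2 library at 1 h.

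The change from 1 h to 3 h differed between the strains for NOP1 (-1.19 ± 0.25, limma adjusted p = 0.00836) and NOP58 (-1.08 ± 0.29, 0.0478), a smaller rise in cho2, beside 1.44% of all tested genes negative and 0.672% positive. The median of the 60 was -0.38 against -0.01 for all tested genes. It was -0.04 without cho2 SL 3 h replicate 2, with 1 call beside 1.38% of all genes, and -0.69 with 22 calls beside 5.87% without cho2 SL 3 h replicate 1. The count was 0 without WT SL 1 h replicate 2, WT SL 3 h replicate 1 or cho2 SL 1 h replicate 2, and 1 without either cho2 library in YPL or cho2 SL 1 h replicate 1. All 12 libraries contribute to 1 shared spread, so leaving out a library that is in neither side of a comparison can still move its count.

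The promoters of the 60 genes share sequence that the naming rule did not use. Within 250 bases before the start codon, on either strand, the PAC core GATGAG was present in 49 of 60 promoters (81.67%), against 17.04% of the 5993 promoters searched. The RRPE core AAAATTT was present in 53 (88.33%), against 21.68%, and both cores in 43 (71.67%), against 6.62%. The longer forms GCGATGAG and AAAAATTTT, which contain the cores, were present in 24 (40%) and 30 (50%), against 3.84% and 6.76%. AAAATTT overlaps its own reverse complement, so shares are counted by promoter and not by match. Both cores were found in all 4 snoRNP core promoters, in 13 of 16 large subunit and 21 of 29 small subunit promoters, and in RRP40 alone of the 7 exosome promoters. Of the 132 ribosomal protein promoters 10.6% held the PAC core and 25.8% the RRPE core.

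Matches lay at preferred distances. In the stretch from 150 to 101 bases before the start codon 45% of the 60 promoters held a PAC core and 61.67% an RRPE core, against 4.64% and 7.81% of all promoters. From 100 to 51 bases the PAC core was found in 28.3% against 4.47%. The 43 genes with both cores had a median WT difference at 1 h of -1.25, and 39 fell and 1 rose, while the 17 without both had -0.40, with 8 that fell and 2 that rose. With the exosome left out the medians were -1.26 (42 genes) and -0.80 (11 genes), with 39 and 7 that fell. A match is a description of the letters, and binding was not measured.

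**Figure D5:**
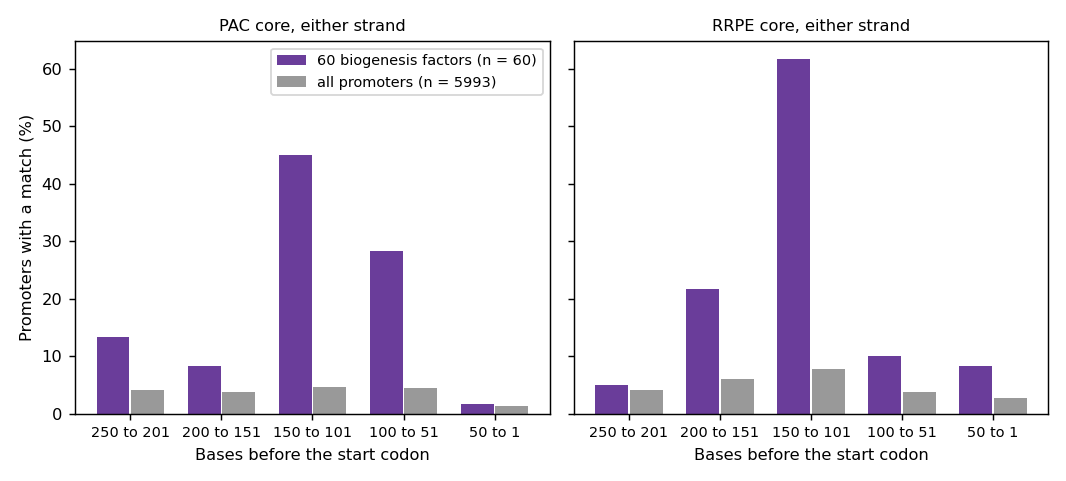
Share of promoters with at least 1 PAC core or RRPE core, on either strand, in 5 consecutive stretches of 50 bases before the start codon, for the 60 ribosome biogenesis factors (purple) and all 5993 promoters searched (grey). The share in the 60 is highest 150 to 101 bases before the start codon, at 45% for PAC and 61.67% for RRPE.

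The genes are spread over 14 chromosomes, from 1 gene on IX to 11 on IV. Only RRP15 and NOC4 are next to each other, facing each other on XVI with 689 bases between them. At 1 h in WT they lay at -0.52 and -1.19. In the R64 annotation 0 of the 60 overlapped another coding sequence and 0 had a near-identical copy.

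Factors with other names belong to the same pathway, and their counts stand beside the 23.8% of all tested genes that fell and the 33.7% that rose in WT at 1 h. Of 40 other-named small subunit factors 29 fell and 1 rose in WT at 1 h (median -0.92), of 56 large subunit factors 45 fell and 2 rose (-1.17), and of 6 other snoRNP proteins 5 fell and 1 rose (-2.19). Among 11 other exosome and cofactor genes 4 fell and 2 rose (-0.27). The nuclear helicase MTR4 fell by 1.30 ± 0.18, and TRF5, a poly(A) polymerase that marks RNA for the exosome, rose by 1.45 ± 0.20. All 132 cytosolic ribosomal protein genes fell (median -2.74), between the subunit factors and the box C/D genes. Of 15 genes for RNA polymerase I and its initiation factors 5 fell and 2 rose, among them the subunit RPA49 with a fall of 3.02 ± 0.21 and RPA135 with a fall of 2.37 ± 0.19, while the initiation factor RRN3 lay at 0.23 ± 0.18. RNA polymerase III had 3 of 10 lower and 1 higher. At 1 h in cho2 the medians were -0.50 and -0.64 for the other-named small and large subunit factors and -1.82 for the ribosomal protein genes.

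Transcripts of known regulators moved in both directions at 1 h in WT. TOD6 fell by 1.84 ± 0.23 and DOT6 by 0.89 ± 0.18, both PAC-binding repressors, and the RRPE-binding factor STB3 lay at -0.12 ± 0.19. CRF1, a corepressor of ribosomal protein genes, rose by 2.85 ± 0.21, from 289 and 265 to 1876 and 2118, and the activators SFP1, IFH1 and FHL1 rose by 0.72 ± 0.18, 0.84 ± 0.21 and 0.58 ± 0.20. HMO1, which binds ribosomal DNA and ribosomal protein promoters, fell by 0.87 ± 0.16. In cho2 at 1 h TOD6 fell by 1.14, DOT6 by 1.42 and STB3 by 0.57, and CRF1 rose by 2.33. SFP1 went from 908 and 965 in cho2 YPL to 1098 and 1124 at 1 h, and IFH1 from 379 and 352 to 750 and 637. FHL1 went from 424 and 427 to 600 and 646 in cho2, and HMO1 from 1109 and 1166 to 637 and 662. Of these regulators none was called between the strains at 1 h by limma.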

How the data were processed

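Poly-A RNA of 12 libraries was sequenced with a stranded TruSeq kit (labels' protocols). The deposited values are a normalised signal per gene: read counts divided by 1 factor per library. How that factor was set was not tested. The submitters' processing notes name Bowtie, DESeq and the build sacCer2. Not given in the sources used here are their versions, the counting tool, its annotation and whether strand was used. Steps between low values gave whole reads for 100% of values within 0.01 reads in all 12 columns, and 3 columns had a step near 1. Recovered depth was 3.17 to 12.5 M reads. Values were taken as log2(value + 1), and limma 3.58.1 in R 4.3.3 was fitted to all 6 groups together, on 6546 genes with a value of at least 10 in at least 2 libraries, with Benjamini-Hochberg adjustment over these genes and a threshold of 0.05. edgeR 4.0.16 and DESeq2 1.42.0 on the recovered read counts were alternatives, beside other pseudocounts, filters, TMM and quantile scaling, a replicate block, only the groups compared, and each library left out. The scripts were tested on simulated data.

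Members and lists were chosen with earlier results of these data known. Roles come from RefSeq notes and general knowledge. Genes named with values were, in each role class, the 3 largest falls and 2 smallest differences in WT at 1 h, all members of classes of at most 5, NOP1, NOP2 and RRP8, members called between strains, 9 regulators and CHO2, and the 2 smallest adjusted p of each other list. Members given by call or as the end of a range are outside that rule.

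Promoters were read from the RefSeq R64 genome, where 6006 of 6685 names matched and 679 did not. Near copies were sought with blastn 2.17.0 at 95% identity over 50% of the length. Tables and plots used Python 3.11.15, numpy 2.4.6, pandas 2.3.3 and matplotlib 3.10.9.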

Additional observations from a re-analysis of the deposited data

Results flagged for a closer look

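For 6 results the response was called different between the strains, by a test of the difference itself (limma interaction, adjusted p under 0.05, 2 libraries a group). Among all tested genes 1.62% were called positive and 1.99% negative in the change from YPL to 1 h. From 1 h to 3 h 0.672% were called positive and 1.44% negative. In the change from YPL to 1 h the value in cho2 minus that in WT was 1.05 for NOP1, 1.19 for UTP9, 1.05 for NOP58 and 1.04 for NOP4. NOP1, NOP58 and NOP4 fell less in cho2, and the cho2 libraries of UTP9 in YPL and at 1 h overlapped. Part of each value came from a lower level of cho2 in YPL, which was not called. In the change from 1 h to 3 h it was -1.19 for NOP1 and -1.08 for NOP58, which rose less in cho2. NOP1 and NOP58 appear in both sets, and both sets use the same 1 h libraries. At 1 h the call was lost in 6 of 23 settings for NOP1, 6 for UTP9, 7 for NOP58 and 8 for NOP4. From 1 h to 3 h it was lost in 3 of 23 for NOP1 and 10 for NOP58.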

How the results depend on the processing

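Counts of members called in each strain at 1 h moved little: leaving out 1 library gave 40 to 54 in WT (50 with all) and 31 to 43 in cho2 (37 with all). The same range was 15 to 28 for WT at 3 h against YPL, 33 to 48 for WT from 1 h to 3 h, 15 to 37 for cho2 at 3 h against YPL, 14 to 41 for cho2 from 1 h to 3 h, 0 to 14 between strains at 1 h, 0 to 19 at 3 h, 0 to 12 for the interaction at 1 h and 0 to 22 for that from 1 h to 3 h. Between strains in YPL it was 0 throughout, and 1 with DESeq2.

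For cho2 from 1 h to 3 h (23 calls) the count was 45 with TMM, 47 with quantile scaling, 45 with edgeR and TMM, 46 with DESeq2 and 44 without both 3 h libraries numbered 2, an alternative chosen after seeing the data. Between strains at 1 h (3 calls) these settings gave 22, 27, 21, 24 and 19, and 20 with only the groups compared. At 3 h (1 call) they gave 2, 3, 2, 5 and 2, with 0 for no filter and 0 for only the groups compared. The interaction at 1 h (4 calls) gave 15, 21, 16, 24 and 15, with 1 for no filter and 15 for only the groups compared. The interaction from 1 h to 3 h (2 calls) gave 7, 11, 8, 12 and 1, with 1 for no filter and 1 for edgeR with the deposited scaling. TMM moved the median of all genes by -0.16 for WT at 1 h and 0.20 for WT from 1 h to 3 h. Under TMM 20% of all tested genes rose and 19.8% fell in cho2 from 1 h to 3 h. The TMM share called higher between strains at 1 h was 8.07%, and 3.28% were positive in the interaction at 1 h. For other settings and fits a share over all genes is given only where stated above, so these counts describe the settings alone.

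The replicate block gave 51 calls for WT at 1 h, 39 for cho2 at 1 h, 6 between strains at 1 h, 2 between strains at 3 h and 6 for the interaction at 1 h. The numbers were not taken to pair the samples, since correlations of same-numbered deviations ran from -0.196 to 0.542.

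The difference between small and large subunit medians, with means in place of medians, was 0.207 for WT at 1 h, 0.175 for cho2 at 1 h, 0.0788 for WT from 1 h to 3 h and 0.0666 for cho2 from 1 h to 3 h. With other-named factors added it was 0.137 for WT at 1 h and -0.0862 for WT from 1 h to 3 h, where quantile scaling gave 0.294. Leaving out 1 library gave -0.0632 to 0.0785 for WT at 1 h, 0.0549 to 0.162 for cho2 at 1 h, 0.102 to 0.259 for WT from 1 h to 3 h, -0.0911 to 0.00917 for cho2 from 1 h to 3 h and -0.0814 to 0.0158 between strains at 1 h.

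Of the settings tried on named genes 1192 kept direction and call, 78 lost the call, 47 gained it and 17 changed sign, all in genes without a call. RRP42 at 1 h became -0.0406 with TMM, -0.0395 with edgeR and TMM and -0.0326 with DESeq2 in WT, and -0.0118 with TMM, with or without edgeR, in cho2. RRP45 in WT became -0.127 with TMM, with or without edgeR, -0.120 with DESeq2, -0.0423 with quantile scaling, -0.0389 without WT YPL replicate 2 and -0.0480 without WT SL 1 h replicate 1. In cho2 at 1 h, without SL 1 h replicate 2, NOP53 became 0.0249, RRP14 0.0219, UTP30 0.0284 and UTP9 0.0744, and RRP14 became 0.0485 with quantile scaling and UTP9 0.0763 without cho2 YPL replicate 1. The lowest values without 1 library were -0.206, -0.128, -0.263 and -0.202 in that order of genes, and the highest of RRP45 in WT was 0.105. The cause of these shifts was not tested. With 2 libraries a group, differences between strains are the least settled results, and the 3.17 M reads of WT SL 3 h replicate 2 give that library the least precision.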
